A study of Mus musculus with 14 samples.

Results

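The genes for 7 subunits of the GABA-A receptor (Gabra2, Gabra3, Gabra4, Gabra5, Gabrb1, Gabrb2 and Gabrd) were followed through H3K4me3 profiles of mouse prefrontal cortex. H3K4me3 is a histone mark found at the starts of active and poised genes, and it was measured by chromatin immunoprecipitation and sequencing (ChIP-seq). The summits taken were all peak summits of the deposited table inside these genes or within 2 kb of them on mm10. These were 74 summits in 16 called regions, of 153207 summits in 48695 called regions. Gabra2 had 9 summits, Gabra3 3, Gabra4 11, Gabra5 18, Gabrb1 22, Gabrb2 14 and Gabrd 8, and 11 of them counted for both Gabra4 and Gabrb1. All 74 passed the filter on low values. Neighbouring summits of a gene lay 190 bp apart in the median, about a nucleosome, so that neighbours are not independent measurements.

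The mice were adult C57BL/6J males aged 10 to 12 weeks. The CSDS30 group (5 libraries) met an unfamiliar aggressive CD1 mouse briefly each day for 30 days and lived behind a perforated barrier beside it in between, the CSDS10 group (5 libraries) did so for 10 days, and control mice (3 libraries) lived in divided cages with no aggressor. Both defeated groups also took behavioural tests, on days 28 to 29 in CSDS30 and days 8 to 9 in CSDS10. The last session came 24 hours before dissection. The input library was not analysed here. All 13 libraries carry the same batch date. Whether the libraries stem from different animals is not stated in the labels, and the p-values therefore reflect variation among the libraries at hand, which may be technical.

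GABA-A receptors are chloride channels opened by GABA, the main inhibitory transmitter of the cortex, and each is a ring of subunits drawn from several gene families. The alpha subunits set much of a receptor's kinetics and drug response, beta subunits help to form the GABA site and are needed for assembly, and the delta subunit takes the place of a gamma subunit in receptors outside the synapse that give a lasting, tonic inhibition. Gabra2 and Gabra3 encode alpha subunits found largely at synapses, Gabra4 an alpha subunit that often pairs with delta, and Gabra5 one found largely outside the synapse.

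Promoter sequences show how unlike the starts of these genes are. RefSeq (GRCm38.p6) gave 10 promoter windows, each from 250 bases before to 50 bases after a start, for 6 of the 7 genes. Shown are 6 of them, chosen because a summit named in the results lies in or near the window, or because 2 starts of a gene or 2 extremes of CpG content can be set side by side. They lie at chr5:71095800-71096099 (minus strand, Gabra2), chrX:72656870-72657169 (minus strand, the first start of Gabra3), chr7:57510010-57510309 (minus strand, Gabra5), chr5:71657671-71657970 and chr5:71699682-71699981 (plus strand, the first and the second start of Gabrb1) and chr11:42420190-42420489 (plus strand, the first start of Gabrb2). Capitals mark CpG dinucleotides, and each sequence runs 5′ to 3′ along the gene's strand.
Gabra2: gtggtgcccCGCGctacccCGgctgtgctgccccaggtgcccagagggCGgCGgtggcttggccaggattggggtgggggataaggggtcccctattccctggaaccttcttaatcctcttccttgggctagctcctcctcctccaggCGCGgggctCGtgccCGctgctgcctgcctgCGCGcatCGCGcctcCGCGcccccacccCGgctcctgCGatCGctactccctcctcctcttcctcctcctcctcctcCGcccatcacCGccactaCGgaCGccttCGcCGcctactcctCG
Gabra3: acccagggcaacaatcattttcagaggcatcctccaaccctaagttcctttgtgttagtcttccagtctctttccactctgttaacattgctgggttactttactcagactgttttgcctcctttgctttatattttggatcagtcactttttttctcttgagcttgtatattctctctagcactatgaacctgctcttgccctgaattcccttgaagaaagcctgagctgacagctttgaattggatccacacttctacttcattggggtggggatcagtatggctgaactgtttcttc
Gabra5: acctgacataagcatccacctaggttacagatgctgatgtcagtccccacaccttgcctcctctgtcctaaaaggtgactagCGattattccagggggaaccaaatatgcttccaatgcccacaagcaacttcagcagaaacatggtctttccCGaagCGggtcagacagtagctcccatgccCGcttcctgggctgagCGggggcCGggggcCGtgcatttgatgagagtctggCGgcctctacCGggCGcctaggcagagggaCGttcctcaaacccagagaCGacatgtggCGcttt
Gabrb1, first start: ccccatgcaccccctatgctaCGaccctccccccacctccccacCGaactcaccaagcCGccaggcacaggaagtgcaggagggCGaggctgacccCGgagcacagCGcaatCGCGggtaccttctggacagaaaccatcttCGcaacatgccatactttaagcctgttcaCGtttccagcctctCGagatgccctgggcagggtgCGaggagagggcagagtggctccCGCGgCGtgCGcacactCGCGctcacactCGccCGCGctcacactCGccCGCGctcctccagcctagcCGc
Gabrb1, second start: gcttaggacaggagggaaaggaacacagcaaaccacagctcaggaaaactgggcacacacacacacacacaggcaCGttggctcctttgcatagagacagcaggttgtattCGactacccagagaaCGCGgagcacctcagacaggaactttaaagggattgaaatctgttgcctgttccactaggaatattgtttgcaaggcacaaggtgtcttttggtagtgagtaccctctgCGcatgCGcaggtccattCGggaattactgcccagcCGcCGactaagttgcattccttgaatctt
Gabrb2, first start: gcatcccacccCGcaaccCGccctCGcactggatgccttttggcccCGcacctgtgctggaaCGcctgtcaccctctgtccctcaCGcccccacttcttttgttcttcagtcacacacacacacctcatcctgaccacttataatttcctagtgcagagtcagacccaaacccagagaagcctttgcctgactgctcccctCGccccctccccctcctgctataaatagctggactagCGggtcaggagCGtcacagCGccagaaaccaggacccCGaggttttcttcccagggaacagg

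The Gabra2 window held 25 CpGs and was 70% G and C, and the window at the first start of Gabrb1 also held 25, whereas both Gabra3 windows held 0. The second start of Gabrb1 had 9 CpGs, Gabra4 12, Gabra5 13 and the windows of Gabrb2 11, 9 and 9. Over all 32851 RefSeq promoter windows the median was 7 CpGs. Letters were searched on both strands. TATAAA was present in both Gabra3 windows and in the first Gabrb2 window, against 13.6% of all windows. The Gabra3 starts lie 112 bp apart, so that their windows overlap and hold the same match. CCAAT was present in Gabra2, Gabra3, Gabra4, Gabra5 and the second Gabrb2 window, against 37.4% of all. GGGCGG was present in Gabra2, Gabra4 and the first Gabrb2 window, against 35.7% of all. TGACGTCA (1.79% of all windows), GCGTGGGCG (0.612%) and the consensus glucocorticoid response element (0.00913%) were in none of the 10 windows. GCGTGGGCG can share letters with GGGCGG, and a match describes letters only.

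Between 4512817 (CSDS10 replicate 4) and 10887911 (control replicate 1) reads per library fell on summits, of which the 74 summits took 1482 to 4707. That was 0.0380 ± 0.00743% of reads in CSDS30 (SD, n = 5), 0.0400 ± 0.00757% in CSDS10 (SD, n = 5) and 0.0363 ± 0.00904% in control (SD, n = 3). As a check of the tissue, 8 of 8 excitatory neuron markers, 7 of 9 inhibitory neuron markers (Sst and Vip had no summit) and 5 of 5 pan-neuronal markers had a summit. So did 6 of 6 astrocyte, 4 of 7 oligodendrocyte, 2 of 6 microglia, 5 of 5 endothelial and 7 of 7 striatal neuron markers, and none of those with a summit was at 0 in any library. In bulk tissue, fewer cells of a type and less of the mark per cell cannot be told apart.

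The mark at these genes was modest. The strongest summit of each gene is given in normalised reads, the reads at a summit after the authors' scaling for depth. Over 13 libraries it averaged 85.3 at Gabra5, 73.0 at Gabra2, 66.1 at Gabrb1, 65.2 at Gabra4, 55.7 at Gabrd, 52.7 at Gabrb2 and 29.4 at Gabra3. Over 15248 protein-coding genes, the strongest summit had a median of 97.6, and the 7 genes stood between the 6.11th percentile (Gabra3) and the 36.9th (Gabra5) of that order. Of neighbours in the order, Gabrb2 exceeded Gabra3 in 13 of 13 libraries, by 23.2 ± 8.89 normalised reads (SD of the difference). The other neighbours changed places in 2 to 7 libraries. Those differences lay between 0.884 and 12.3 normalised reads, each smaller than its SD between libraries.

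**Figure D1:**
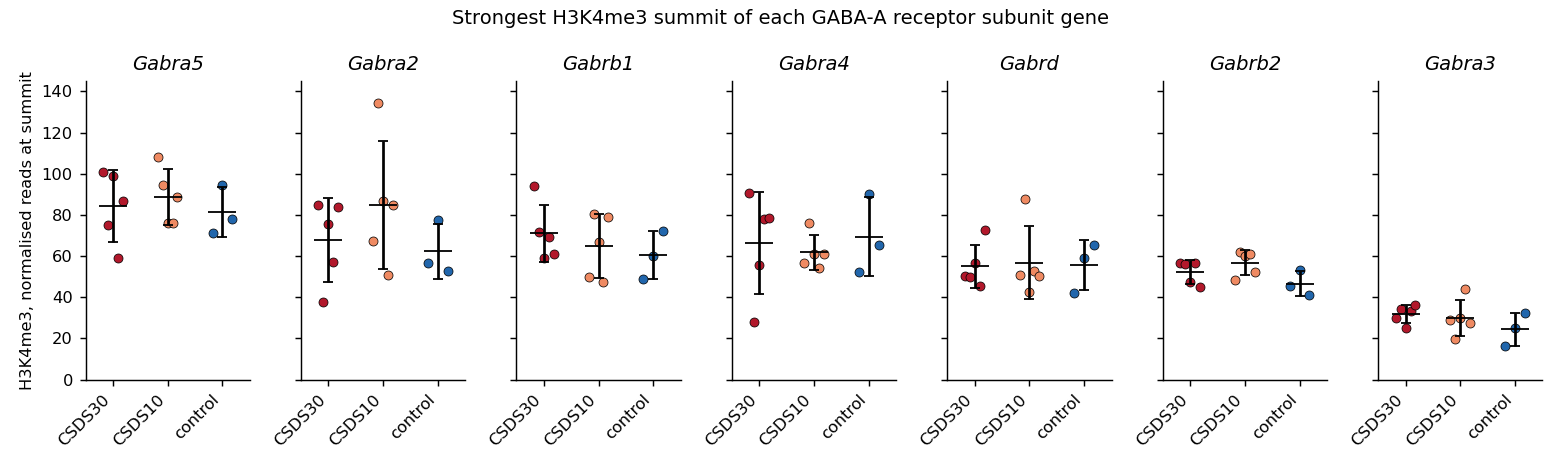
Normalised reads at the strongest H3K4me3 summit of each gene in each library (points), with the group mean (long line) and SD (error bar) for CSDS30 (n = 5), CSDS10 (n = 5) and control (n = 3). The groups overlap at each gene, and the highest point is CSDS10 replicate 2 at Gabra2 (134.1).

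Among the alpha subunits, the strongest Gabra2 summit lay at chr5:71096075-71096076, 226 bp before the start and inside the promoter printed above. It had 84.6, 37.5, 75.7, 57.3 and 84.1 normalised reads in CSDS30, 67.3, 134.1, 86.6, 50.8 and 84.6 in CSDS10, and 56.6, 77.3 and 52.7 in control (replicates in order). CSDS10 replicate 2 was the highest and CSDS30 replicate 2 the lowest, and the groups overlapped. Its log2 fold change was 0.08 (SE 0.25) in CSDS30 against control, 0.39 (SE 0.25) in CSDS10 against control and -0.30 (SE 0.22) in CSDS30 against CSDS10.

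Gabra4 and Gabrb1 start 387 bp apart on opposite strands, with heads that overlap. Summits inside or within 2 kb of both genes number 11, and their reads cannot be assigned to either gene. The strongest shared summit, at chr5:71658165-71658166, lay 143 bp into Gabra4. It had 90.8, 28.1, 55.7, 77.9 and 78.3 normalised reads in CSDS30, 56.6, 76.2, 61.2, 54.2 and 61.0 in CSDS10, and 52.4, 90.3 and 65.3 in control. The lowest and the highest value both came from CSDS30, whose range covered the other groups. The log2 fold change was -0.14 (SE 0.26) in CSDS30 against control, -0.14 (SE 0.26) in CSDS10 against control and 0.00 (SE 0.22) in CSDS30 against CSDS10. A lone summit 2365 bp into Gabra4 was weaker, at 17.7 ± 12.1 in CSDS30, 20.2 ± 11.4 in CSDS10 (SD, n = 5 each) and 14.2 ± 4.68 in control (SD, n = 3).

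Gabra5 carried the mark in 2 separate places. Its strongest summit, at chr7:57590956-57590957 by the upper end of the gene, belonged to a region of 10 summits spanning 1942 bp. This region also lies within 2 kb of another GABA-A subunit gene, and the reads of the summit cannot be assigned to either gene. The summit had 101.0, 75.0, 98.9, 59.0 and 87.0 normalised reads in CSDS30, 108.3, 94.6, 76.2, 76.2 and 88.6 in CSDS10, and 71.3, 94.7 and 77.9 in control. Every control value fell within the range of CSDS30, and 1 lay below the CSDS10 values. The log2 fold change was 0.03 (SE 0.18) in CSDS30 against control, 0.12 (SE 0.18) in CSDS10 against control and -0.09 (SE 0.16) in CSDS30 against CSDS10. The other 8 summits lay around the RefSeq start, 80957 bp inside the gene. The strongest of them, 776 bp past that start, had 54.3 ± 23.3 in CSDS30, 53.0 ± 15.9 in CSDS10 (SD, n = 5 each) and 44.4 ± 18.4 in control (SD, n = 3).

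Gabra3, on the X chromosome and with no CpG in its promoter windows, had the weakest mark: 3 summits in a region spanning 312 bp, all downstream of the start. The strongest, at chrX:72655886-72655887, had 29.8, 34.4, 25.2, 33.4 and 36.2 normalised reads in CSDS30, 28.7, 19.8, 30.1, 44.0 and 27.6 in CSDS10, and 16.1, 25.2 and 32.1 in control. Control replicate 1 was the lowest of the 13 libraries and the groups overlapped. The log2 fold change was 0.41 (SE 0.29) in CSDS30 against control, 0.29 (SE 0.29) in CSDS10 against control and 0.11 (SE 0.25) in CSDS30 against CSDS10.

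Of the beta subunits, Gabrb1 has 2 RefSeq starts 42011 bp apart, and its strongest summit belonged to the second, which has fewer CpGs. This summit, at chr5:71700951-71700952 and 1019 bp past the second start, had 94.0, 71.9, 58.9, 69.3 and 60.9 normalised reads in CSDS30, 50.04, 80.5, 66.8, 47.4 and 78.9 in CSDS10, and 48.9, 59.9 and 72.2 in control. CSDS30 replicate 1 was the highest and the groups overlapped. The log2 fold change was 0.23 (SE 0.21) in CSDS30 against control, 0.08 (SE 0.21) in CSDS10 against control and 0.14 (SE 0.18) in CSDS30 against CSDS10. A long non-coding RNA gene (Gm38562) is annotated over the second start. The strongest Gabrb1 summit exceeded the strongest summit shared with Gabra4, near the first start, by 0.884 ± 17.7 normalised reads (SD of the difference). It was higher in 7 of 13 libraries, so that the levels at the 2 starts were not separated.

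The strongest Gabrb2 summit, at chr11:42420445-42420446, lay 5 bp past the first start. It had 56.4, 56.2, 47.3, 56.5 and 44.9 normalised reads in CSDS30, 48.4, 62.1, 60.2, 61.0 and 52.0 in CSDS10, and 45.4, 53.0 and 41.3 in control. Among the strongest summits it had the smallest SD within groups on the log2 scale (0.16). Its SD between libraries was 0.786 times (CSDS30), 0.765 times (CSDS10) and 0.916 times (control) the SD that counting alone would give. Only in CSDS30 was another strongest summit, that of Gabra3, lower by this ratio (0.774). The Gabrb2 log2 fold change was 0.16 (SE 0.20) in CSDS30 against control, 0.28 (SE 0.20) in CSDS10 against control and -0.12 (SE 0.17) in CSDS30 against CSDS10. A long non-coding RNA gene (Gm34591) is annotated over this start. A weaker summit of the same gene, 1499 bp past the first start, had 30.2 ± 14.3 in CSDS30, 34.3 ± 17.9 in CSDS10 (SD, n = 5 each) and 26.3 ± 17.0 in control (SD, n = 3), with an SD 2.61, 2.86 and 3.49 times that of counting in the same order of groups.

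The strongest Gabrd summit lay at chr4:155397926-155397927, near the upper end of the gene, where Cfap74 is also annotated. It had 50.1, 49.98, 56.8, 45.3 and 72.5 normalised reads in CSDS30, 50.9, 87.5, 42.4, 52.5 and 50.4 in CSDS10, and 41.9, 59.1 and 65.3 in control. CSDS10 replicate 2 stood above the other 12 libraries. The log2 fold change was -0.01 (SE 0.23) in CSDS30 against control, 0.01 (SE 0.23) in CSDS10 against control and -0.02 (SE 0.20) in CSDS30 against CSDS10.

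**Figure D2:**
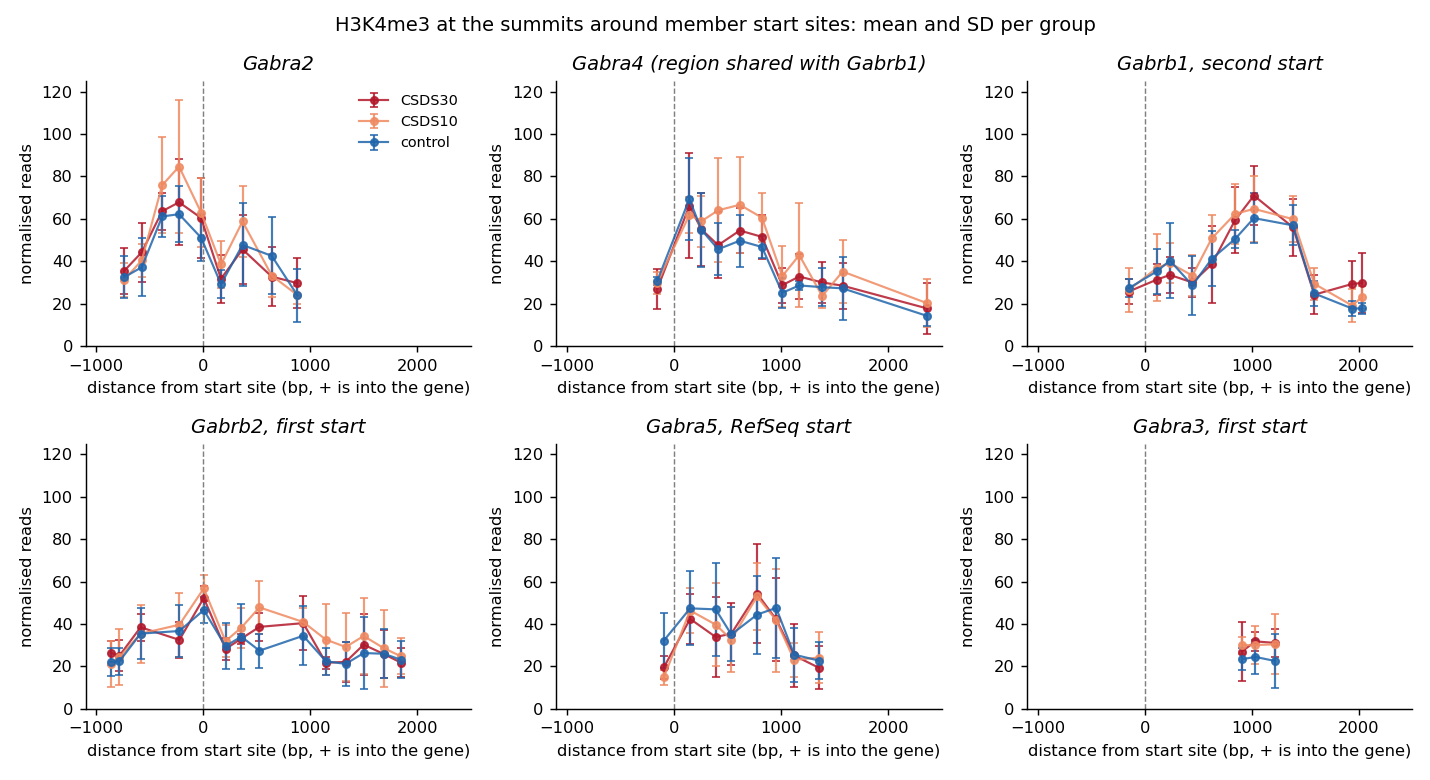
Mean and SD of normalised reads in CSDS30 (n = 5), CSDS10 (n = 5) and control (n = 3) at each summit, against its distance in bp from the start site named above each panel. The error bars of the groups overlap at most summits, and Gabra2 has its highest mean before the start and the second start of Gabrb1 1019 bp after it.

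No summit of these genes was called in any comparison (limma, Benjamini-Hochberg over 152270 summits, threshold 0.05), and none was called elsewhere in the genome, so that the share called was 0%. For CSDS30 against control the smallest adjusted p over the 74 summits was 0.999979, for CSDS10 against control 0.999946 and for CSDS30 against CSDS10 0.962906. Over all summits, 5194, 4891 and 7795 had an unadjusted p under 0.05 in these comparisons in turn, and edgeR and DESeq2 on the recovered reads called 0. The median 95% interval of a summit's log2 fold change reached 0.61 to either side in each comparison with control and 0.53 in CSDS30 against CSDS10. The whole interval stayed within 1 of 0 at 56, 56 and 65 of the 74 summits, so that a difference above that size was outside the interval at those, while smaller differences were not resolved.

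In CSDS30 against control the log2 fold changes of the 74 summits had a median of 0.07, against 0.00 over all summits, and ran from -0.65 to 0.64. Of them 42 were above 0 (50.8% of all summits were) and 32 below. None had an unadjusted p under 0.05, against 1.44% of all summits with higher and 1.97% with lower signal. At 1 summit the groups did not overlap with CSDS30 higher, against 1.23% of all summits. It lay 2026 bp past the second start of Gabrb1 and had 25.1, 54.7, 22.1, 22.2 and 24.6 normalised reads in CSDS30, 22.1, 26.8, 29.2, 15.2 and 22.0 in CSDS10, and 20.3, 18.2 and 14.9 in control. Its log2 fold change was 0.63 (SE 0.33; limma, adjusted p = 0.999979), and CSDS30 replicate 2 stood far above the other libraries. No summit separated the groups with CSDS30 lower (1.74% of all did).

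In CSDS10 against control the median was 0.15, against 0.00 over all summits, with a range of -1.01 to 0.78. Of the 74 summits 56 were above 0 (50.3% of all summits were). An unadjusted p under 0.05 was reached by 1 summit with higher signal (1.99% of all) and 1 with lower signal (1.22% of all), and no summit separated these groups (1.59% of all did with higher and 1.4% with lower signal). The higher one, 191 bp past the second start of Gabrb2, had 45.4, 45.3, 31.6, 32.5 and 38.4 normalised reads in CSDS30, 63.2, 32.5, 39.5, 57.6 and 46.3 in CSDS10, and 21.7, 36.5 and 24.1 in control. Control replicate 2 overlapped the defeated groups. Its log2 fold change was 0.78 (SE 0.26; limma, adjusted p = 0.999946) in CSDS10 and 0.50 (SE 0.26; limma, adjusted p = 0.999979) in CSDS30, both against the same 3 control libraries. The lower one, 96 bp before the RefSeq start of Gabra5 and inside the printed promoter, had 22.7, 10.9, 16.8, 23.1 and 23.9 normalised reads in CSDS30, 17.2, 15.5, 18.8, 11.9 and 10.6 in CSDS10, and 17.5, 36.5 and 42.4 in control. Control replicate 1 lay among the defeated libraries and the other control libraries above all of them. Its log2 fold change was -1.01 (SE 0.36; limma, adjusted p = 0.999946) in CSDS10 and -0.65 (SE 0.36; limma, adjusted p = 0.999979) in CSDS30.

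In CSDS30 against CSDS10 the median was -0.12, against 0.00 over all summits, with a range of -0.49 to 0.65. Of the 74 summits 21 were above 0 (49.9% of all were) and 53 below. None had an unadjusted p under 0.05 (2.01% of all with higher and 3.11% with lower signal), and none separated the groups (0.334% and 0.387% of all). The smallest p belonged to a summit 1938 bp past the second start of Gabrb1, with 29.3 ± 10.9 normalised reads in CSDS30 and 19.1 ± 7.77 in CSDS10 (SD, n = 5 each; log2 fold change 0.65, SE 0.32; limma, adjusted p = 0.962906). On the lower side a summit in the upper region of Gabra5 had 58.8 ± 15.9 in CSDS30 and 77.1 ± 22.4 in CSDS10 (log2 fold change -0.39, SE 0.20; limma, adjusted p = 0.962906). A test of any difference over the 3 groups (limma F test) called 0 summits, and 2 of the 74 had an unadjusted p under 0.05, against 3.62% of all.

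**Figure D3:**
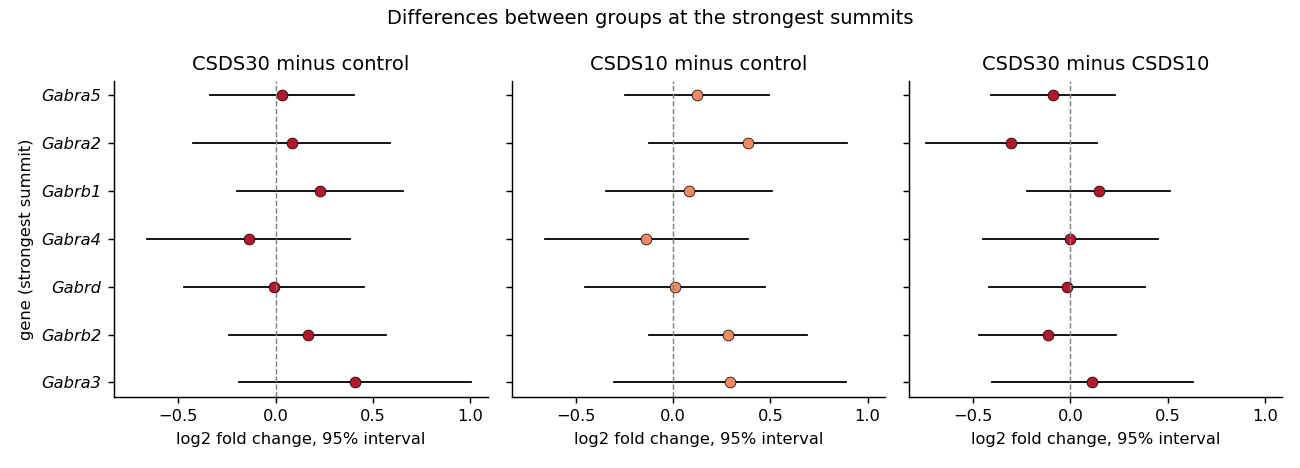
Log2 fold change (point) with its 95% interval (line) at the strongest summit of each gene in CSDS30 minus control, CSDS10 minus control and CSDS30 minus CSDS10. Each interval includes 0, and the largest difference is 0.41 at Gabra3 in CSDS30 minus control.

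The values that varied were those of libraries within a group. Averaged over the 74 summits, the signal was 49.8, 33.7, 33.6, 32.7 and 44.4 normalised reads in CSDS30, 38.4, 56.7, 42.7, 33.9 and 37.2 in CSDS10, and 27.0, 45.2 and 40.1 in control. CSDS10 replicate 2 was the highest and control replicate 1 the lowest, 2.10-fold apart, and the groups overlapped. CSDS10 replicate 2 was the highest library for 6 of 7 genes (gene means over summits, Gabra3 the exception) and control replicate 1 the lowest for 6 of 7 (Gabra4 the exception). In CSDS30 replicate 1, 69 of 74 summits were above their own mean over the libraries, in CSDS10 replicate 2 67 and in control replicate 1 3. The median deviation was 0.38 in CSDS30 replicate 1, 0.55 in CSDS10 replicate 2 and -0.54 in control replicate 1 on the log2 scale, whereas the median over all tested summits was 0.02 in each of these libraries. The ratio of the highest to the lowest library ran from 1.88 at Gabrb1 to 2.88 at Gabra3.

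**Figure D4:**
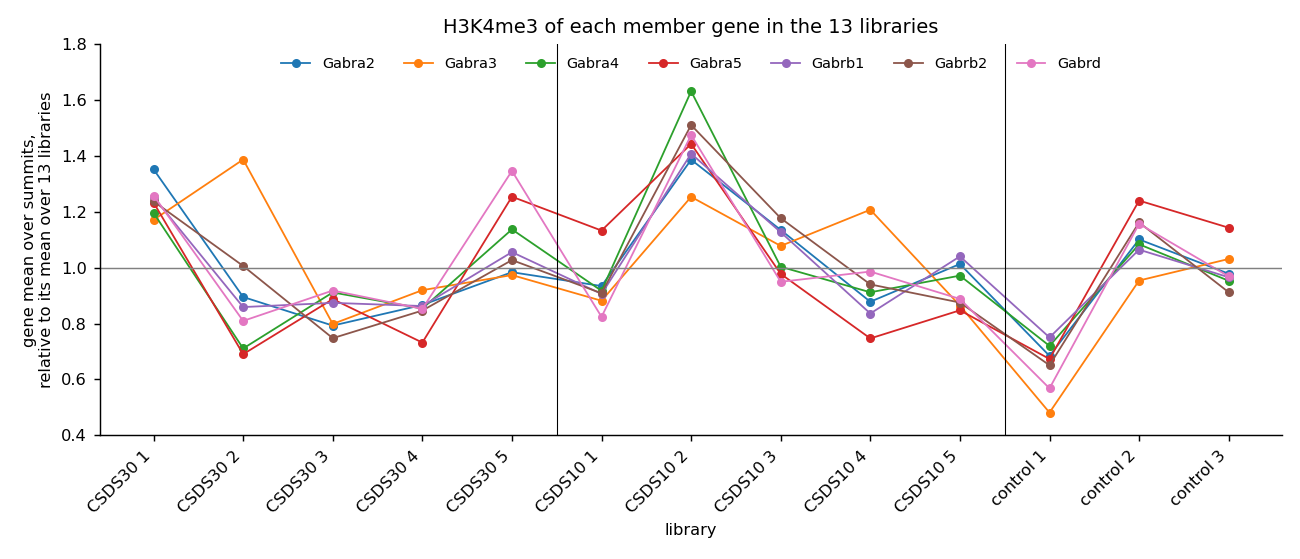
Mean normalised reads over the summits of each gene in each of the 13 libraries, divided by the gene's mean over the 13, with vertical lines between CSDS30, CSDS10 and control. Most genes are high in CSDS30 1 and CSDS10 2 and low in control 1, where the mean over the 74 summits was 49.8, 56.7 and 27.0 normalised reads.

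In both comparisons with control the sign of the median depended on which libraries entered, while in CSDS30 against CSDS10 it stayed below 0 with any library left out. Without control replicate 1 the median over the 74 summits was -0.16 in CSDS30 against control (20 above 0) and -0.08 in CSDS10 against control (32 above 0). Without control replicate 2 it was 0.19 (60 above 0) and 0.33 (67 above 0) in the same comparisons, and without CSDS30 replicate 1 it was -0.02 in CSDS30 against control (34 above 0). Without CSDS10 replicate 2 it was 0.11 in CSDS10 against control (43 above 0) and -0.02 in CSDS30 against CSDS10 (33 above 0). With both control replicate 1 and CSDS10 replicate 2 left out, a choice made after seeing the data, the medians were -0.16, -0.19 and -0.02, with 0 summits called.

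Levels of cell type markers also moved between these libraries. The summed strongest summits of the 5 pan-neuronal markers ran from 139.0 to 342.0 normalised reads in CSDS30, from 200.8 to 463.0 in CSDS10 and from 195.6 to 295.4 in control, with CSDS10 replicate 2 the highest. For the 7 inhibitory neuron markers with a summit the sums were 255.6 to 308.7 in CSDS30, 165.2 to 257.6 in CSDS10 and 240.7 to 265.0 in control, with CSDS10 replicate 2 the lowest. Excitatory neuron markers summed to 385.8 to 531.9 in CSDS30, 381.2 to 591.5 in CSDS10 and 447.4 to 478.0 in control, with CSDS10 replicate 2 the highest. Striatal neuron markers, a check for neighbouring tissue, summed to 290.0 to 424.6 in CSDS30, 303.2 to 495.5 in CSDS10 and 355.0 to 426.4 in control, again with CSDS10 replicate 2 the highest. Astrocyte markers summed to 323.4 to 403.8, 355.7 to 433.0 and 337.9 to 413.0, oligodendrocyte markers to 166.2 to 225.9, 161.0 to 201.9 and 185.7 to 230.6, microglia markers to 31.2 to 62.5, 38.6 to 65.9 and 29.5 to 41.2, and endothelial markers to 125.3 to 214.7, 151.6 to 208.3 and 126.8 to 227.1, each in CSDS30, CSDS10 and control in turn. The part of these differences in the signal at the receptor genes was not tested.

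Set against other genes, this spread was on the high side. The signal was first averaged over a gene's summits, and the SD of that mean between libraries of a group was taken on the log2 scale. This SD was 0.40 for Gabra5, 0.37 for Gabrd, 0.35 for Gabra3, 0.32 for Gabrb2, 0.32 for Gabra4, 0.29 for Gabra2 and 0.26 for Gabrb1. The median over 14372 protein-coding genes with 3 or more summits was 0.14, and the 7 genes stood between the 88.1st and the 97.6th percentile. Low signal by itself gives a larger SD. Against the spread that the fit gives for a summit of its level, 56 of the 74 summits (75.7%) were above, compared with 46.7% of all tested summits. For Gabra2 this held at 9 of 9 summits, for Gabra5 at 15 of 18, for Gabra4 at 8 of 11, for Gabrb1 at 15 of 22, for Gabrb2 at 9 of 14, for Gabrd at 6 of 8 and for Gabra3 at 2 of 3. No test was made of this difference, since neighbouring summits share fragments.

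The widest swings were at the RefSeq start of Gabra5. A summit 389 bp past it had 46.2, 10.9, 36.8, 18.8 and 56.5 normalised reads in CSDS30, 43.5, 72.0, 22.6, 27.1 and 33.3 in CSDS10, and 23.1, 66.0 and 51.6 in control. Its spread was 2.09 times that expected at its level, a higher ratio than at 99.8% of tested summits. The strongest summits of Gabra2 and Gabra4 stood at the 98.5th and the 97.8th percentile of this ratio, and that of Gabrb2 at the 1.83rd. The strongest summits of the 7 genes had a median SD of 0.33, against 0.45 at the other 67 summits, and over all protein-coding genes with 3 or more summits the medians were 0.24 and 0.34. Gabra2 was an exception, with a higher SD at its strongest summit (0.47) than its median over 9 summits (0.43), and at Gabra4 the strongest summit was at the median (0.47). Relative to the spread expected at its level, the median was 1.09 at the 7 strongest summits and 1.18 at the other 67, against 1.01 and 0.98 over all those genes.

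**Figure D5:**
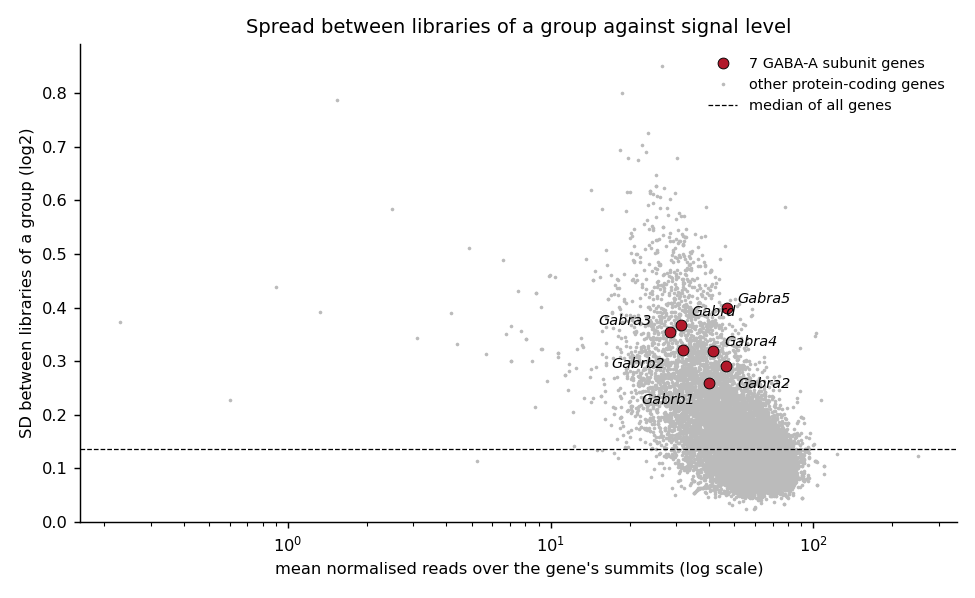
SD between libraries of a group (log2 scale) of a gene's mean over its summits, against that mean in normalised reads (log scale). Shown are the 7 receptor genes (red) and the other protein-coding genes with 3 or more summits (grey). The 7 genes lie between 0.26 and 0.40, above the median of 0.14 over 14372 genes (dashed line), in the range of levels where the grey points are widely scattered.

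Between the strongest summits of the 7 genes, deviations from the group means had a Pearson r over the 13 libraries of 0.11 in the median of 21 pairs, from -0.55 (Gabra2 with Gabra3) to 0.76 (Gabra2 with Gabra4), and 13 pairs were positive. The values of a pair share a library and its depth. Among 14922 other protein-coding genes, those whose strongest summit was most like the mean profile of the 7 over the 13 libraries were Chgb (r = 0.949), Cdh8 (r = 0.940), Tmem200a (r = 0.927), Myt1l (r = 0.918) and Kcnv1 (r = 0.912), where the median gene had r = 0.16 and the 99th percentile was 0.79. Chgb, which encodes a protein of secretory granules, had 83.3 normalised reads in CSDS10 replicate 2 and 25.9 in control replicate 1. Myt1l, a neuronal transcription factor gene, had 87.5 and 23.8 in the same libraries.

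Other genes of GABA signalling were read at their strongest summit, and none was called in either direction in any comparison. Over 15201 protein-coding genes the median log2 fold change at the strongest summit was -0.07 in CSDS30 against control, 0.01 in CSDS10 against control and -0.08 in CSDS30 against CSDS10. For GABA synthesis, release and uptake (7 of 7 genes tested) the medians were -0.12, -0.03 and -0.09 in these comparisons in turn, with 3 genes above 0 in each. Slc32a1, the vesicular GABA transporter, had 28.3 ± 7.08 normalised reads in CSDS30, 31.7 ± 5.94 in CSDS10 (SD, n = 5 each) and 20.6 ± 7.06 in control (SD, n = 3; log2 fold change 0.64, SE 0.30, in CSDS10 against control; limma, adjusted p = 0.999946).

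For the 18 genes of the inhibitory synapse and receptor trafficking the medians were -0.06, 0.06 and -0.09, with 7, 12 and 4 genes above 0. Hap1, a trafficking adaptor for GABA-A receptors, had 96.4 ± 13.2 in CSDS30, 106.2 ± 21.5 in CSDS10 and 126.1 ± 3.10 in control, and CSDS30 and control did not overlap (log2 fold change -0.39, SE 0.16; limma, adjusted p = 0.999979). Over all tested summits, 1.74% separated these groups with CSDS30 lower. Nlgn2, the adhesion protein of inhibitory synapses, had 145.6 ± 22.9 in CSDS30, 128.7 ± 17.2 in CSDS10 and 114.0 ± 5.93 in control (log2 fold change 0.34, SE 0.14, in CSDS30 against control; limma, adjusted p = 0.999979). Trak1, a kinesin adaptor, had 79.1 ± 16.5 in CSDS30 and 106.1 ± 15.8 in CSDS10 (log2 fold change -0.43, SE 0.15; limma, adjusted p = 0.962906). Plcl1 and Shisa7 were the others of this list named by rank, with log2 fold changes of -0.25 (CSDS30 against CSDS10) and -0.36 (CSDS10 against control).

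The 7 chloride transport genes had medians of -0.11, 0.04 and -0.11, with 1, 5 and 1 above 0. Car2, a carbonic anhydrase, had 73.9 ± 18.9 in CSDS30, 106.5 ± 13.2 in CSDS10 and 89.2 ± 13.4 in control (log2 fold change -0.55, SE 0.16, in CSDS30 against CSDS10; limma, adjusted p = 0.962906). The 5 genes of the GABA-B receptor, the metabotropic GABA receptor, had medians of -0.02, -0.04 and -0.19, with 2, 2 and 1 above 0. Among them Kctd12, an auxiliary subunit, had 71.7 ± 4.96 in CSDS30, 83.7 ± 10.8 in CSDS10 and 91.6 ± 6.19 in control, and CSDS30 and control did not overlap (log2 fold change -0.35, SE 0.16; limma, adjusted p = 0.999979). The share of all tested summits that separated these groups in this direction was 1.74%. Of 12 other GABA-A subunit genes 7 had a summit, with medians of 0.05, 0.20 and -0.09 and 6, 6 and 2 above 0. The last median, -0.09, is the value already given for the strongest Gabra5 summit, which also counts for a gene of this list. The list is thus not independent of the members. Gabre had 30.4 ± 5.005 in CSDS30, 30.8 ± 4.57 in CSDS10 and 24.3 ± 5.04 in control, with groups that overlapped.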

How the data were processed

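H3K4me3 ChIP-seq libraries (micrococcal nuclease digestion, 100 bp single reads) came with a table of summits by library. The tools were Bowtie2, DESeq2, MACS2 and Trimmomatic and the builds GRCm38.p5 and mm10, per the submitters' processing notes, which give no settings. The signal values were deposited by the authors as reads divided by a size factor per library, and dividing by the smallest step of a library recovered whole reads for 100% of values, within 0.001 reads. The peak score in the deposited table was not used in a test. Neither the counting window of a summit nor the handling of duplicates is stated.

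The test was limma (version 3.58.1, R 4.3.3) with a variance trend on log2(value + 1), a scale that understates the change of low summits, with a mean per group over all 13 libraries and no covariate. Summits passed edgeR's filterByExpr (152270 kept, 937 left out), with Benjamini-Hochberg adjustment of p over all those kept (threshold 0.05). edgeR (4.0.16) and DESeq2 (1.42.0) on the recovered reads called 0 summits. Reads carry no molecular identifiers, so they are not independent molecules and counting errors cover counting only. No pair of libraries of a group agreed within counting noise. The script was tested on simulated data. Genes and promoters come from RefSeq (GRCm38.p6).

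The 7 genes, the gene lists and the markers were chosen with earlier results of these data known. Named were each gene's strongest summit, its strongest summit over 2 kb inside both boundaries, summits with the smallest p, per list the genes with the smallest p in each comparison, and the 5 genes most like the members. Some of the genes the rule takes are not reported here. Other scalings, filters, pseudocounts, tests, a depth covariate, region or gene means, blocking by replicate number and dropping each library in turn were tried as alternatives.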

Additional observations from a re-analysis of the deposited data

Results flagged for a closer look

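In 58 groups of 5 libraries, the highest or lowest library was compared with the rest of its group, and 5 stood far apart. For independent groups chance gives about 1 in 20. Neighbouring summits share libraries and fragments, so the 5 of 58 cannot be set against that rate. CSDS10 replicate 2 was the high library in 3 of the 5. At the strongest Gabrd summit it had 87.5 normalised reads, with 42.4 to 52.5 in the other CSDS10 libraries. At the Gabra3 summit 1105 bp past the nearest start it had 55.1, with 19.5 to 28.2 in the others, and at the Gabrb2 summit 1146 bp past the first start it had 62.1, with 23.7 to 28.2 in the others. CSDS30 replicate 2 had 54.7 at the Gabrb1 summit 2026 bp past the second start, with 22.1 to 25.1 in the other CSDS30 libraries. CSDS30 replicate 1 had 57.2 at the Gabra2 summit 640 bp past the start, with 24.6 to 30.8 in the others.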

How the results depend on the processing

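With each of the 13 libraries left out, 0 summits were called in any comparison, and likewise in the other alternatives that gave a count (15 for the receptor genes and 13 for all summits in each comparison of groups, 10 for the test over 3 groups). The median over the 74 summits ran from -0.16 to 0.19 in CSDS30 against control, from -0.08 to 0.33 in CSDS10 against control and from -0.23 to -0.02 in CSDS30 against CSDS10 when each library was left out. Shared replicate numbers did not pair the libraries (11 pairs, correlation of deviations -0.29 to 0.37, 3 above 0.1); with the replicate block the medians were 0.13, 0.21 and -0.12, with 0 calls. No strongest-summit difference was called, and 62 of 567 gene values changed sign; the cause was not tested. On leaving out a library, the log2 fold change in CSDS30 against control ran from -0.025 to 0.28 at Gabra2, -0.32 to 0.14 at Gabra4, -0.056 to 0.15 at Gabra5 and -0.19 to 0.12 at Gabrd. In CSDS10 against control it ran from -0.32 to 0.068 at Gabra4, -0.057 to 0.22 at Gabrb1 and -0.17 to 0.14 at Gabrd. In CSDS30 against CSDS10 it ran from -0.022 to 0.26 at Gabra3, -0.14 to 0.28 at Gabra4, -0.16 to 0.029 at Gabra5 and -0.12 to 0.15 at Gabrd. Other settings turned these values. Total-read scaling gave Gabrd 0.0047, -0.0032 and 0.0079 in the 3 comparisons in turn. With a pseudocount of 0.5, Gabra4 was at -0.00060 in CSDS30 against CSDS10. In CSDS30 against control, edgeR gave Gabrd 0.017 and DESeq2 0.013. With depth as a covariate, Gabra4 was at 0.011 and Gabrd at -0.042 in CSDS10 against control, and at -0.083 and 0.011 in CSDS30 against CSDS10. With both control replicate 1 and CSDS10 replicate 2 left out, Gabra5 was at -0.056 in CSDS30 against control, Gabrb1 at -0.14 and Gabrd at -0.34 in CSDS10 against control, and Gabra3 at -0.022 and Gabrd at 0.15 in CSDS30 against CSDS10. With the mean of the called region, Gabra4 was at 0.052, Gabra5 at -0.052 and Gabrd at 0.21 in CSDS30 against control, Gabra4 at 0.21 in CSDS10 against control, and Gabra3 at -0.019, Gabra4 at -0.16, Gabrb1 at -0.13 and Gabrd at 0.024 in CSDS30 against CSDS10. With the mean over a gene's summits, Gabra4 was at 0.045, Gabra5 at -0.13 and Gabrd at 0.30 in CSDS30 against control, Gabra4 at 0.22 and Gabra5 at -0.036 in CSDS10 against control, and Gabra3 at -0.015, Gabra4 at -0.18 and Gabrb1 at -0.10 in CSDS30 against CSDS10. A summit of these genes held between 2 and 132 reads per library, and how far depth limits what can be resolved was not tested.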
